A study of Mus musculus with 6 samples.

Results

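The genes described here are 7 that conventional CD4+ T cells express and that regulatory T cells (Tregs) usually hold low: the cytokine gene Il2, the TNF-family ligand genes Cd40lg and Tnfsf8, the cytokine receptor gene Il7r, the phosphodiesterase gene Pde3b, the gene Dapl1 and the binding protein gene Igfbp4. They were chosen by name, and each was read from the array row that the platform pairs with that symbol alone. All 7 were found, each with 1 row, among 19937 genes in all, and all 7 passed the filter on low values that left 15037 genes for testing.

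The arrays profiled Tregs recovered 5 days after T cells of wild-type C57BL/6 mice had been moved into hosts with no T cells of their own. Hosts of the MHC II-competent group were CD3ε-/- and kept MHC class II, the molecules that show peptides to the T cell receptor of CD4+ cells. Hosts of the MHC II-deficient group lacked MHC class II as well as CD3ε, so the absence of CD3ε is common to both groups. The mice were aged 6 to 8 weeks, and lymph nodes and spleen are the given tissue. Each group has 3 arrays of separate biological replicates, called competent 1 to 3 and deficient 1 to 3 below, and the labels do not say whether a replicate was 1 host or a pool. The cells were sorted as CD4+ TCRβ+ CD25+, with no gate on Foxp3, and activated conventional T cells can carry CD25 too. CD3ε-/- hosts keep their B cells and myeloid cells.

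Foxp3, the factor that defines Tregs, acts with partner proteins to keep a set of T cell genes low. Interleukin-2 is made by activated conventional T cells and is consumed by Tregs, which make little of it. Naive and memory T cells depend on interleukin-7 through the receptor that Il7r encodes, and low surface CD127, its protein, is used to tell Tregs from other CD4+ cells. PDE3B breaks down cyclic AMP, and repression of its gene by Foxp3 is a known feature of mouse Tregs.

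In the cells from MHC II-deficient hosts 3 of the 7 genes rose and 0 fell. Dapl1 was 3.90-fold higher (95% interval 2.74 to 5.56), Pde3b 2.42-fold (1.995 to 2.93) and Tnfsf8 1.84-fold (1.51 to 2.23), with 3 arrays per group. The fold of Dapl1 is less sure, since its value on competent 1 lay near the filter on low values. Il7r lay 1.35-fold higher without passing the test, and Cd40lg, Igfbp4 and Il2 did not pass, with groups that overlapped. A gene is said to pass, to rise or to fall where limma's moderated test, fitted to the deposited log2 values of all genes tested, gave a Benjamini-Hochberg adjusted p under 0.05. Over those 15037 genes 3.37% passed, with 1.34% higher in the cells from MHC II-deficient hosts and 2.03% lower. The 7 genes were picked with earlier results of these arrays known, so their share is a description of them. The arrays measure whole sorts, in which fewer cells of a type and less RNA per cell cannot be told apart. No conventional T cells were profiled, so whether the 7 genes were low in these Tregs was not tested. Their competent means ran from 5.45 for Il2 to 10.73 for Il7r on the log2 scale, against array medians between 6.11 and 6.25.

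**Figure D1:**
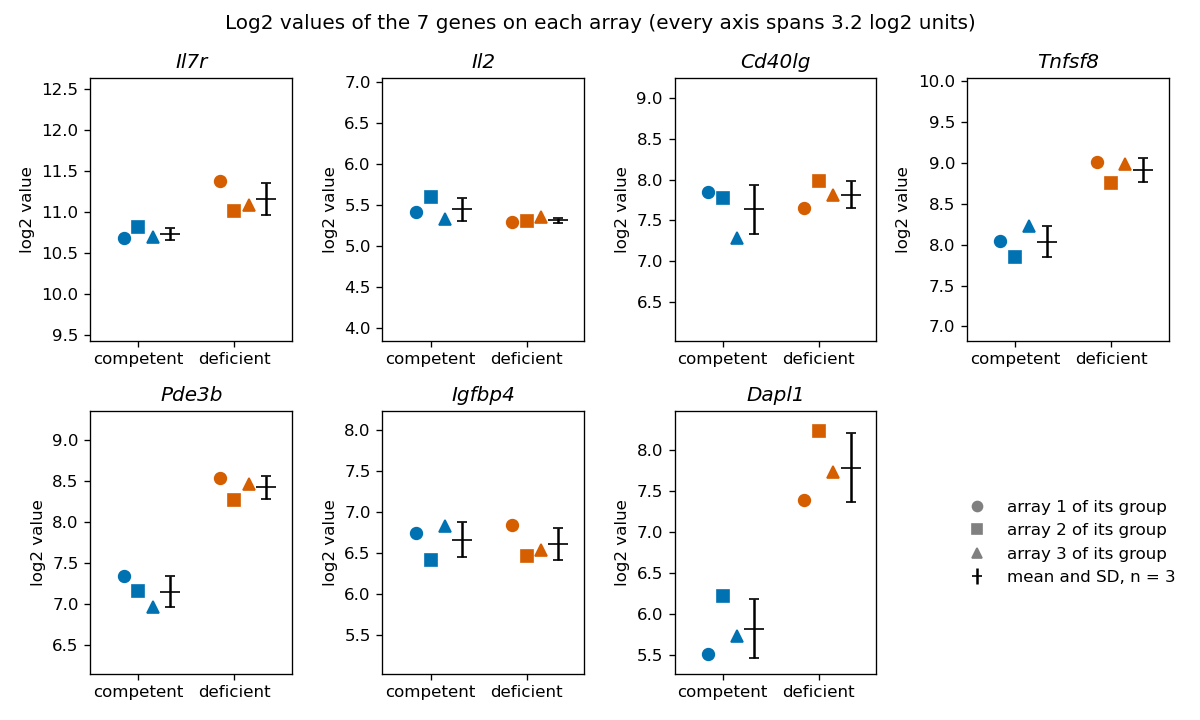
Log2 value (vertical axis, 3.2 units in every panel) of each of the 7 genes on the 3 MHC II-competent arrays (blue) and the 3 MHC II-deficient arrays (orange), with the group mean and SD in black. All deficient arrays lie above all competent arrays for Il7r, Tnfsf8, Pde3b and Dapl1, and the groups overlap for Il2, Cd40lg and Igfbp4.

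Upstream DNA of 5 of the 7 genes was taken from RefSeq (build GRCm38.p6), all but Cd40lg and Pde3b. The 250 bases before the annotated start are shown for Dapl1 and Tnfsf8, which rose, for Il7r, which lay higher, and for Il2, whose upstream region is the textbook target of NFAT. Each run reads 5′ to 3′ along the gene, and capitals mark the letters of a motif searched for.
Dapl1 (chr2:59484403-59484652, plus strand): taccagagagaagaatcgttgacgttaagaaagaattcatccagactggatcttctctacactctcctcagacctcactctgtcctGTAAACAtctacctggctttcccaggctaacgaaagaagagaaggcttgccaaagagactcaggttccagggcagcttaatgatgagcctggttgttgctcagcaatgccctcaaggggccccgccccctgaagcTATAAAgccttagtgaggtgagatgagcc
Tnfsf8 (chr4:63861285-63861534, minus strand): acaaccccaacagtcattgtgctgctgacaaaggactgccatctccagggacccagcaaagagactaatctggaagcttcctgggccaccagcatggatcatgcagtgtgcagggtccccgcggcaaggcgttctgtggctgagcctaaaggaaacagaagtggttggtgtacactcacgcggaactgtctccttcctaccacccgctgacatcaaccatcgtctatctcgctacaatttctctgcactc
Il7r (chr15:9529877-9530126, minus strand): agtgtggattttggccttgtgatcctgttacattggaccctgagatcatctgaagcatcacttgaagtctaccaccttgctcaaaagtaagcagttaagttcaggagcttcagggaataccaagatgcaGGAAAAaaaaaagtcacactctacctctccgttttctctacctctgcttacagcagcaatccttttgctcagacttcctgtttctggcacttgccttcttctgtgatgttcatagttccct
Il2 (chr3:37125955-37126204, minus strand): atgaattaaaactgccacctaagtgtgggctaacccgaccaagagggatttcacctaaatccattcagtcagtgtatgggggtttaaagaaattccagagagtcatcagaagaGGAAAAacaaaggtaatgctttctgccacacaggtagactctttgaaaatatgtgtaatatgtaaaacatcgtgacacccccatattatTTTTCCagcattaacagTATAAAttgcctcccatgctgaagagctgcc
The 5 motifs were searched on both strands: the forkhead letters TGTTTAC, the NFAT letters GGAAAA, the AP-1 letters TGANTCA, the TCF and LEF letters CTTTGAT and the TATA letters TATAAA. Dapl1 holds the forkhead letters on the opposite strand, at bases 164 to 158 before the start, as do 3.17% of 32851 upstream windows of the same length. Il2 holds the NFAT letters at 2 places, bases 137 to 132 and, on the opposite strand, 48 to 43, and Il7r holds them at bases 121 to 116. The NFAT letters stand in 20.4% of all windows. The TATA letters, present in 12.4%, were found in Dapl1, Il2 and Igfbp4. None of the 5 motifs was found in the Tnfsf8 window. No matches overlapped, and a match of letters does not show that a factor binds there. The AP-1 letters and the TCF and LEF letters, in 6.75% and 3.21% of all windows, were in none of the 5 windows searched.

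Among the secreted and membrane-bound ligands, Tnfsf8 rose. It encodes CD30L, the ligand of the receptor CD30, and its log2 value was 8.04, 7.85 and 8.22 on the competent and 9.01, 8.75 and 8.99 on the deficient arrays (row 10513729). The lowest deficient array lay 0.52 log2 units above the highest competent array. The log2 difference was 0.88 (SE 0.12, limma adjusted p = 0.0071), the 90th largest increase of the 15037 genes. It stayed past the threshold in all 15 alternative settings, with differences from 0.78 to 1.08 and adjusted p from 0.0027 to 0.040. Tnfrsf8, which encodes CD30 itself, stood at 6.48 ± 0.06 against 6.63 ± 0.05 (SD, n = 3), a log2 difference of -0.15 (limma adjusted p = 0.41).

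Cd40lg encodes CD40L, through which helper T cells license B cells and dendritic cells. Its log2 value was 7.84, 7.77 and 7.29 on the competent and 7.65, 7.98 and 7.81 on the deficient arrays (row 10599802), so the groups overlapped and competent 3 was the lowest of the 6. The log2 difference of 0.18 had a 95% interval from -0.17 to 0.53 (limma adjusted p = 0.59). Without competent 3 it was 0.005, and with the myeloid marker score described below as a covariate it was -0.05. The receptor gene Cd40 differed by 0.15 on the log2 scale (SE 0.11, limma adjusted p = 0.53).

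Il2, the interleukin-2 gene, lay near the filter value on all 6 arrays. Its log2 value was 5.42, 5.60 and 5.33 on the competent and 5.29, 5.31 and 5.35 on the deficient arrays (row 10497878), against a filter value of 5.205, and detection calls were not used here. The 3 deficient arrays lay within 0.06 of each other and reached into the range of the competent arrays. The log2 difference was -0.13 with a 95% interval from -0.36 to 0.10 (limma adjusted p = 0.54). With values this near the filter, the difference does not bound a ratio of Il2 transcript levels. Of the 15 alternative settings, the filter at the median removed Il2, and in the other 14 its difference ran from -0.24 to -0.05 and did not pass. Of the 11 tested genes of the NFAT, AP-1 and NF-kappaB factors that act on the Il2 promoter 1 rose, Jun, from 8.76, 8.95 and 8.97 to 9.68, 9.68 and 9.44 (log2 difference 0.70, limma adjusted p = 0.012), and 0 fell. The call of Jun ended without deficient 1 (0.66, adjusted p = 0.063), without deficient 2 (0.66, adjusted p = 0.053) and with the myeloid covariate (0.62, adjusted p = 0.15). Of 5 tested genes of the interleukin-2 receptor and its response (Il2ra, Il2rb, Cish, Socs2 and Bcl2) 0 passed, and their median log2 difference was 0.06. Without competent 1, Socs2, which encodes an inhibitor of cytokine signalling and was singled out after its values were seen, passed in the lower direction (-0.64, limma adjusted p = 0.042). The receptor subunit genes Il2ra and Il2rb differed by -0.27 (SE 0.11, limma adjusted p = 0.22) and 0.12 (SE 0.17, adjusted p = 0.77), and the sign of Il2rb turned without competent 3 (-0.10) and with the myeloid covariate (-0.32).

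Of the 11 other TNF superfamily ligand genes tested, 1 rose and 0 fell, with 5 differences above and 6 below 0 and a median of -0.15 against 0.02 for all genes tested. The gene that rose was Fasl, which encodes the death ligand FasL, at 5.53, 5.60 and 5.65 on the competent and 6.21, 6.29 and 6.26 on the deficient arrays. Its log2 difference was 0.66 (SE 0.09, limma adjusted p = 0.0066), and the call ended with the myeloid score as a covariate (0.71, adjusted p = 0.076). The competent values of Fasl lay near the filter value of 5.205, so the size of its difference is less sure. Without competent 3, Tnf, the tumour necrosis factor gene, also passed, in the lower direction (-0.53, limma adjusted p = 0.026). It was singled out after its values were seen.

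The receptor gene Il7r, which encodes the α chain of the interleukin-7 receptor, had a log2 value of 10.68, 10.82 and 10.69 on the competent and 11.38, 11.01 and 11.09 on the deficient arrays (row 10427628). The groups did not overlap, with a gap of 0.19, and deficient 1 stood highest. Groups that do not overlap, higher in the MHC II-deficient arrays, were found for 11.4% of all genes tested (12.9% lower, 24.3% in either direction) and for 4 of the 7 described here. The log2 difference was 0.43 (SE 0.12, 95% interval 0.17 to 0.69) and did not pass the test (limma adjusted p = 0.085). It passed under quantile normalization (0.51, adjusted p = 0.042) and with a trended robust prior (adjusted p = 0.038), and did not in the other 13 settings, where it ran from 0.27 with the myeloid covariate to 0.50. Of the 4 tested genes of its signalling partners (Jak1, Stat5a, Stat5b and Crlf2, which encodes the other receptor chain for TSLP), 0 passed, and their median log2 difference was -0.03.

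Pde3b, which encodes a phosphodiesterase that hydrolyses cyclic AMP, had a log2 value of 7.33, 7.15 and 6.96 on the competent and 8.54, 8.27 and 8.46 on the deficient arrays (row 10556528). The groups were 0.93 log2 units apart at their nearest arrays. The log2 difference was 1.27 (SE 0.12, limma adjusted p = 0.0016), the 17th smallest p of the 15037 genes and the 40th largest increase. It passed in all 15 alternative settings, with differences from 1.14 to 1.37 and a highest adjusted p of 0.038. Of the 11 other cyclic AMP phosphodiesterase genes tested, 1 rose and 0 fell, with a median log2 difference of 0.03. That gene was Pde7b, at 5.30, 5.42 and 5.18 on the competent and 6.72, 6.08 and 6.34 on the deficient arrays (log2 difference 1.08, SE 0.16, limma adjusted p = 0.0079). The competent mean of Pde7b, 5.30, lay near the filter value, so its size is less sure, and its call ended with the myeloid covariate (0.84, adjusted p = 0.13). Pde4b, which encodes another such enzyme of T cells, stood at a log2 difference of 0.01 (SE 0.10) and Pde7a at 0.22 (SE 0.11), and neither passed (limma adjusted p = 0.97 and 0.31).

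Dapl1, named for its likeness to death-associated protein and a transcript of naive and memory-type T cells, showed the widest difference of the 7. Its log2 value was 5.51, 6.22 and 5.73 on the competent and 7.39, 8.23 and 7.73 on the deficient arrays (row 10472235). Its nearest arrays of the 2 groups were 1.17 log2 units apart, and its SD of 0.42 in the deficient and 0.36 in the competent group was the largest of the 7 genes in each. The value on competent 1 lay near the filter value of 5.205, which leaves the size of the difference less sure. The log2 difference was 1.96 (SE 0.23, limma adjusted p = 0.0032), the 5th largest increase over all genes tested. It passed in 14 of 15 alternative settings, with differences from 1.74 without deficient 2 to 2.16 without competent 2. The exception was the myeloid score as a covariate, where it was 1.82 with an SE of 0.35 and an adjusted p of 0.065. Deficient 2 held the highest of the 3 deficient values of Dapl1 and the lowest of those of Pde3b, Tnfsf8 and Il7r.

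Igfbp4, which encodes a secreted protein that binds insulin-like growth factors, had a log2 value of 6.75, 6.42 and 6.82 on the competent and 6.84, 6.46 and 6.53 on the deficient arrays (row 10381096). The groups overlapped almost fully. The log2 difference was -0.05 with a 95% interval from -0.37 to 0.26 (limma adjusted p = 0.88), and its sign turned without competent 3 (0.03), without deficient 2 (0.02) and with the myeloid covariate (0.04). Of 11 other tested genes of the insulin-like growth factor axis 0 passed by limma (median log2 difference 0.06). Igf1, the growth factor gene itself, singled out after its values were seen, passed without deficient 3 (1.18, limma adjusted p = 0.015) and with the replicate block (0.81, adjusted p = 0.046). Igf1r, which encodes the receptor, stood at 7.08, 7.31 and 6.88 on the competent and 7.51, 7.67 and 7.58 on the deficient arrays. Its log2 difference was 0.50 (SE 0.12, limma adjusted p = 0.063), and it passed with array weights (0.50, adjusted p = 0.034).

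The genes whose values ran most like each of the 7 over the 6 arrays were listed by Pearson's r among the 15030 other genes tested, as a description. With so few arrays and so many genes, very high r values arise for any gene. For Pde3b they were Fbxo17 (r = 0.998), Oas3 (0.993) and Cxcl10 (0.993), for Tnfsf8 Usp18 (0.998), Gm9903 (0.996) and C230012O17Rik (0.995), and for Dapl1 B130006D01Rik (0.992), Acp6 (0.992) and H2-Q4 (0.991). For Il7r they were Gramd3 (0.990), Mrln (0.987) and Ms4a6d (0.984). Oas3, Cxcl10 and Usp18 are genes that cells induce in response to interferons, and each rose here, by log2 differences of 0.83, 1.39 and 1.52 (limma adjusted p = 0.0066, 0.0028 and 0.0020). Gm9903, H2-Q4, B130006D01Rik, Gramd3 and Ms4a6d rose too (limma adjusted p = 0.014, 0.019, 0.021, 0.028 and 0.047). Fbxo17, C230012O17Rik, Acp6 and Mrln did not pass. For the 3 genes with overlapping groups the nearest were Phka2 (0.994), Neurog3 (0.993) and Tmem82 (0.982) for Igfbp4, Inpp5f (0.993), Rest (0.989) and Stam2 (0.985) for Cd40lg, and Bfsp2 (0.992), Ube2v2 (0.991) and Phgdh (0.991) for Il2, and none of these 9 passed the test. Among the 7 genes themselves, Pde3b and Tnfsf8 ran together with r = 0.936, Pde3b and Il7r with 0.898, and Pde3b and Dapl1 with 0.891, while Pde3b and Il2 had r = -0.563. The 6 arrays share the group difference, which enters all of these values.

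Of 17 other genes of conventional and naive CD4 T cells that were listed, 14 were tested, and the rest were not analysed here. All 14 differences lay above 0, with a median of 0.25 against 0.02 for all genes tested, and 2 genes rose while 0 fell. Bach2, which encodes a repressor that holds T cells in a resting state, rose by a log2 difference of 0.66, from 6.53, 6.32 and 6.69 to 7.19, 7.22 and 7.10 (SE 0.11, limma adjusted p = 0.018). Themis, which encodes a signalling protein of the T cell receptor pathway, rose by 0.47, from 8.31, 8.44 and 8.35 to 8.70, 8.88 and 8.94 (SE 0.10, limma adjusted p = 0.040). The homing receptor gene Ccr7 (0.47, adjusted p = 0.077), Lef1 (0.29, adjusted p = 0.20) and Satb1 (0.27, adjusted p = 0.22), which encode nuclear regulators of T cells, did not pass. The sign of S1pr1 turned under median centring and with the myeloid covariate, and that of Trib2 without competent 3 and with that covariate. The count of 2 varied with the setting. It was 0 without competent 1, competent 2, deficient 1 or deficient 2 and with the myeloid covariate. It was 1 without competent 3 or deficient 3, under median centring and with the replicate block, and 3 under quantile normalization and array weights. Without competent 1, competent 2, deficient 1 or deficient 2 the calls over all genes fell too, from 507 to 249, 173, 159 and 213. Over the 15 alternative settings the difference of Bach2 ran from 0.56 to 0.80 and that of Themis from 0.42 to 0.55. With the myeloid covariate the differences of Bach2 and Themis were 0.80 (SE 0.17) and 0.52 (SE 0.16), no smaller than without it. Those of Ccr7, Lef1 and Satb1 were 0.17 (SE 0.15), 0.20 (SE 0.17) and 0.06 (SE 0.15), smaller than without it. The covariate itself partly follows the groups, and its fit has 3 residual degrees of freedom. A myeloid part in any of these differences was not tested.

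Helper T cell cytokines and their regulators, which conventional effector cells express, went both ways. Of 13 listed genes 8 were tested, and Il3, Il5, Il21 and Csf2 were under the filter. The median log2 difference was -0.06, with 1 gene higher and 1 lower. Il21, the interleukin-21 gene, fell under the filter through its deficient values, with 5.06, 6.13 and 5.42 on the competent and 4.48, 4.17 and 4.64 on the deficient arrays. With no filter it passed in the lower direction (-1.11, limma adjusted p = 0.0495), the counts were 1 higher and 2 lower, and the median was 0.009. Tbx21, which encodes the type 1 regulator T-bet, rose from 6.99, 6.99 and 6.96 to 7.50, 7.45 and 7.52 (log2 difference 0.51, SE 0.09, limma adjusted p = 0.017). Il17a, an interleukin-17 gene, fell from 6.88, 6.29 and 6.44 to 5.93, 5.55 and 5.71 (-0.81, SE 0.16, limma adjusted p = 0.030). The call of Tbx21 ended without any array but competent 3 and that of Il17a likewise (highest adjusted p 0.080 and 0.11), and both ended with the myeloid covariate (0.15 and 0.18), where the differences were 0.51 and -0.83 and the SEs 0.14 and 0.25.

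**Figure D2:**
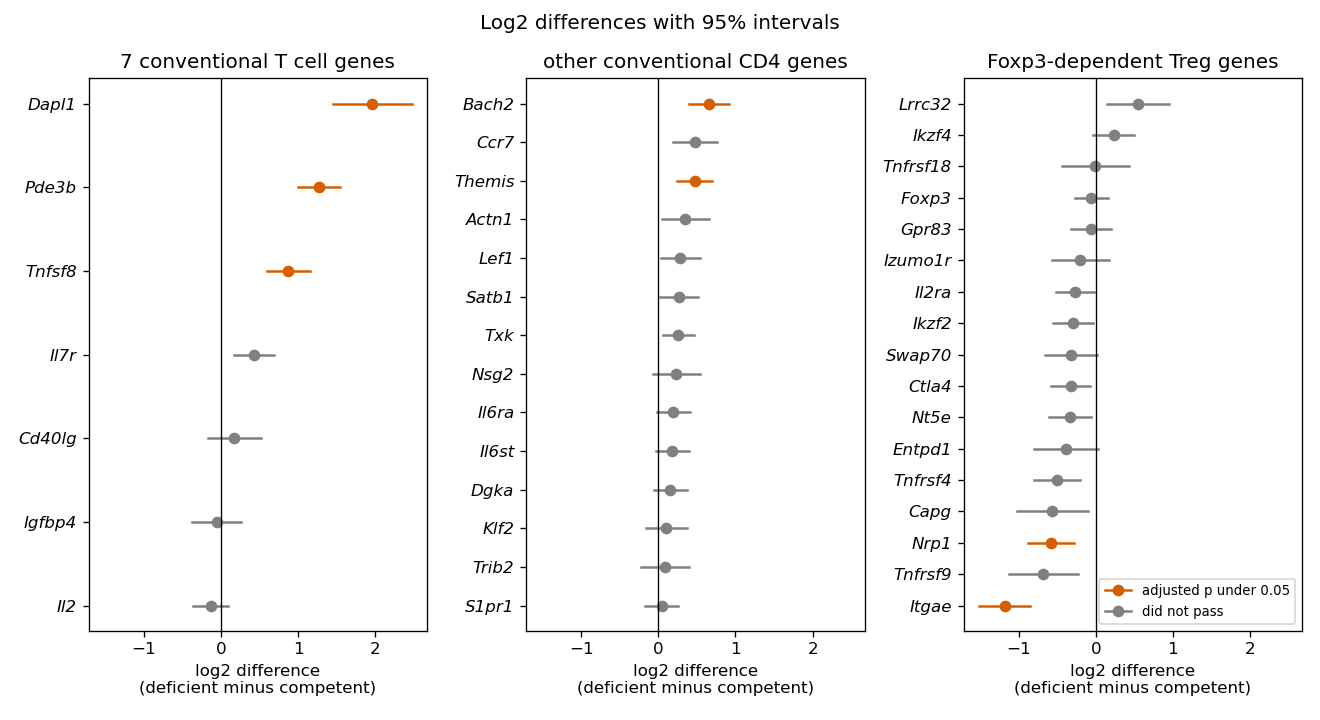
Log2 difference (MHC II-deficient minus MHC II-competent, horizontal axis) with its 95% interval, with genes past the threshold in orange. The panels hold the 7 genes, 14 other conventional CD4 T cell genes and 17 genes of the Treg programme. The last panel is titled Foxp3-dependent Treg genes and includes Foxp3 itself, and dependence on Foxp3 was not tested here. Dapl1, Pde3b and Tnfsf8 stand apart at 1.96, 1.27 and 0.88, all 14 other conventional genes lie above 0 and 15 of the 17 Treg genes below 0.

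Genes of the Treg programme were set beside them. Foxp3 stood at 9.82, 9.88 and 9.77 on the competent and 9.68, 9.76 and 9.86 on the deficient arrays, with overlapping groups. Its log2 difference was -0.06 with a 95% interval from -0.27 to 0.16 (limma adjusted p = 0.798), and the sign turned under quantile normalization (0.02). Over the 17 tested genes of this list, which includes Foxp3 and Il2ra, 2 fell and 0 rose, 15 lay below 0, and the median log2 difference was -0.32. The 2 above 0 were Lrrc32 (0.55, limma adjusted p = 0.14) and Ikzf4 (0.23, adjusted p = 0.33), named after their values were seen. Under quantile normalization 13 lay below 0 and 4 above. Itgae, which encodes the αE integrin, fell from 9.99, 9.99 and 9.75 to 8.39, 8.93 and 8.86 (log2 difference -1.18, limma adjusted p = 0.0045), and Nrp1, which encodes neuropilin-1, from 9.37, 9.56 and 9.17 to 8.59, 8.95 and 8.81 (-0.58, adjusted p = 0.048). Ctla4 (-0.33, adjusted p = 0.17) and Ikzf2 (-0.29, adjusted p = 0.20), the genes of CTLA-4 and Helios, did not pass. The list had 6 lower genes past the threshold without competent 3, 4 with array weights, 3 with the trended robust prior, 0 with the myeloid covariate, and 1 without any other single array, with no filter, under quantile normalization and under median centring. With the myeloid covariate Itgae stood at -1.15 (SE 0.23) and Nrp1 at -0.72 (SE 0.20).

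The balance of cell types in the sorts was followed through marker lists. The 11 tested pan-T-cell genes had none past the threshold and a median log2 difference of -0.08. Of these, 10 lay below 0 and 1 above, and 7 lay below 0 under quantile normalization. The lowest differences were those of Cd5 (-0.26), Trat1 (-0.21) and Cd3d (-0.20), with limma adjusted p = 0.30, 0.37 and 0.31. Cd3e stood at 11.12 ± 0.03 in the deficient and 11.19 ± 0.07 (SD, n = 3) in the competent group. Cd4 differed by -0.08, and by 0.002 under quantile normalization and 0.02 without competent 1. The CD8 genes Cd8a and Cd8b1 stood 0.32 and 0.26 higher without passing (limma adjusted p = 0.21 and 0.18), and the mean of the pair lay between 6.62 and 6.76 on the competent and between 6.91 and 7.08 on the deficient arrays. Of 6 tested NK cell genes 1 rose, Klrd1 (limma adjusted p = 0.00056), which T cells can express too. In this list 5 differences lay above 0 and 1 below, with a median of 0.37. The list mean, which includes Klrd1, was 7.41, 7.53 and 7.32 on the competent and 8.15, 7.86 and 8.14 on the deficient arrays. Klrd1 stood at 4.64, 4.41 and 4.97 on the competent arrays, all under the filter value, and at 7.50, 6.85 and 7.64 on the deficient arrays, through which alone it passed the filter, so its log2 difference of 2.66 is not a sure size. The NK markers Ncr1 and Klrb1c were under the filter. The 4 tested B cell genes had none past the threshold and list means of 5.95 to 6.18 on the competent and 6.09 to 6.15 on the deficient arrays, with Ms4a1 and Cr2 under the filter. Without competent 1, the B cell receptor gene Cd79a passed in the higher direction (0.67, limma adjusted p = 0.027). Of 3 tested erythroid and platelet genes 0 passed (median log2 difference 0.15), and Alas2, a haem synthesis gene, passed higher without competent 3 (0.68, limma adjusted p = 0.023) and with array weights (0.56, adjusted p = 0.045). Il21, Cd79a and Alas2 were singled out after their values were seen.

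Myeloid markers were higher on most deficient arrays, beside the rise of Dapl1, Pde3b and Tnfsf8. Of the 12 tested, 11 lay above 0 (median log2 difference 0.98), and the list mean was 6.46, 6.87 and 5.83 on the competent and 7.64, 7.37 and 6.81 on the deficient arrays. The groups thus overlapped, since deficient 3 lay under competent 2. Adgre1, which encodes a surface antigen of macrophages, was the 1 called (log2 difference 1.39, limma adjusted p = 0.035). The count of higher genes was 0 without each array but deficient 3, and 3 without deficient 3. It was 8 with the replicate block, 3 with array weights, and 0 with the trended robust prior or either other scaling (quantile, median). With the myeloid covariate it was 0 too, but that covariate is the mean of these same 12 genes. That 0 therefore says nothing of how stable the count is. Clec4a1 was under the filter on all 6 arrays, and with no filter it passed higher (0.67, limma adjusted p = 0.025), for a count of 2. Itgam, which encodes the integrin chain CD11b, lay below 0 (-0.43, limma adjusted p = 0.12) and passed in the lower direction without competent 3 (-0.57, adjusted p = 0.025) and with array weights (-0.51, adjusted p = 0.043). Clec4a1 and Itgam were singled out after their values were seen. With the list mean as a covariate, Pde3b (1.14, adjusted p = 0.038) and Tnfsf8 (1.08, adjusted p = 0.037) remained past the threshold. Dapl1 kept a difference of 1.82, and the median SE of the 7 genes grew from 0.12 to 0.19 with 3 residual degrees of freedom.

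**Figure D3:**
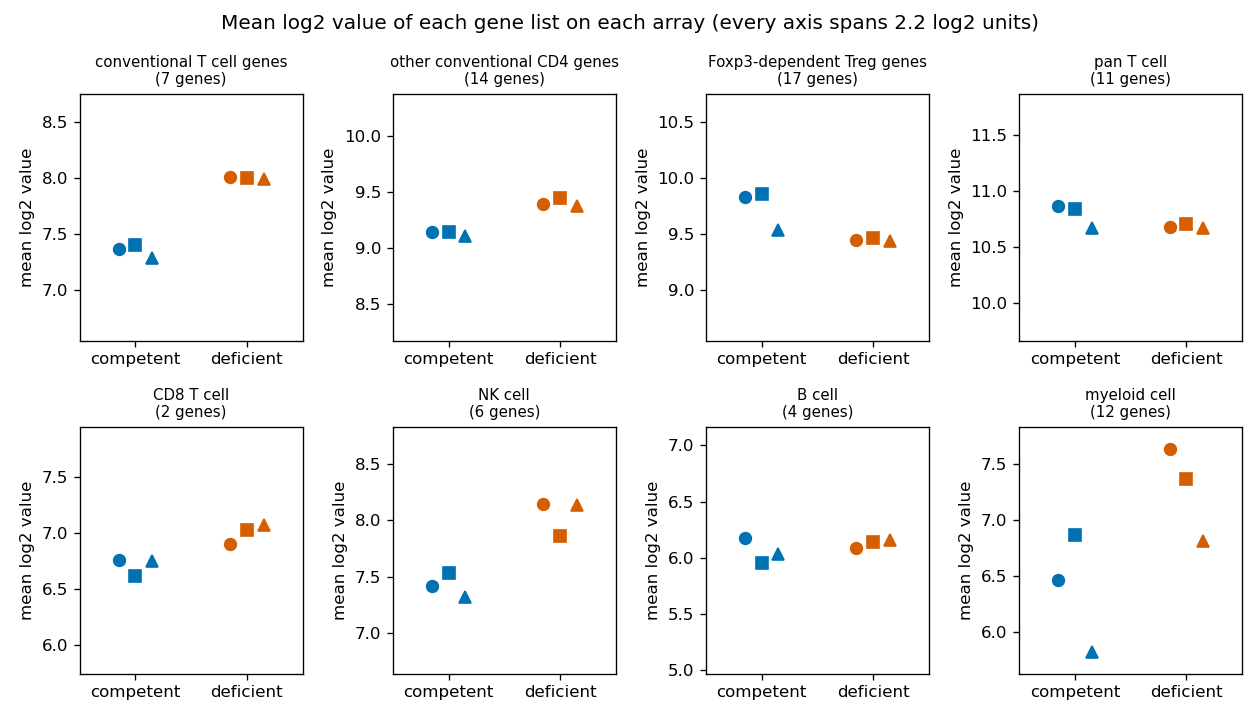
Mean log2 value (vertical axis, 2.2 units in every panel) of the tested genes of each list on the 3 competent (blue) and 3 deficient (orange) arrays. The lists are the 7 conventional T cell genes, other conventional CD4 genes, genes of the Treg programme (titled Foxp3-dependent Treg genes) and cell type markers. The mean of the 7 genes lies between 7.29 and 7.40 on the competent and between 7.99 and 8.01 on the deficient arrays. It pools Dapl1, Pde3b and Tnfsf8, which rose, with Il7r, which did not pass, and Il2, Cd40lg and Igfbp4, whose groups overlapped. The myeloid mean spans 5.83 to 6.87 on the competent and 6.81 to 7.64 on the deficient arrays.

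Foxp3 protein, its activity and the share of Foxp3+ cells were not measured on these arrays, so the part of a mixed-in share of conventional T cells or of weaker repression by Foxp3 in the rise of Dapl1, Pde3b and Tnfsf8 was not tested.

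**Figure D4:**
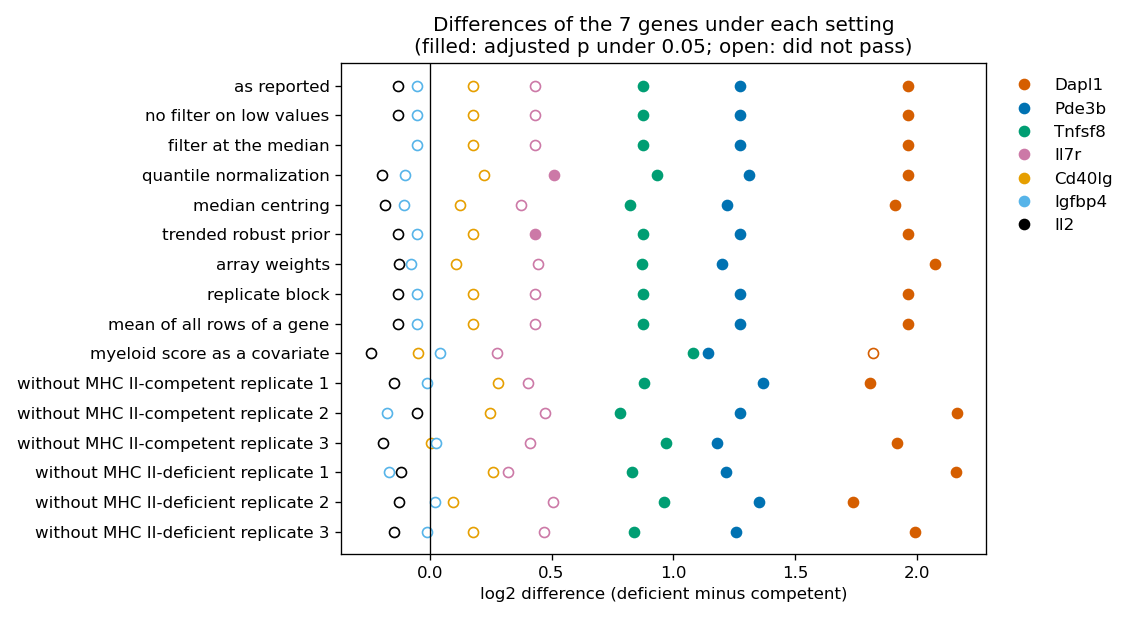
Log2 difference (MHC II-deficient minus MHC II-competent, horizontal axis) of the 7 genes as reported and in 15 alternative settings (vertical axis), with filled points for an adjusted p under 0.05 and open points for others. Dapl1 stays between 1.74 and 2.16, Pde3b between 1.14 and 1.37 and Tnfsf8 between 0.78 and 1.08, and Il7r is filled in 2 alternative settings.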

How the data were processed

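Total RNA (100 ng per array) was labelled for single-colour Affymetrix whole-transcript arrays, per the labels' protocols. The authors deposited a log2 value per row and array, made with the R package affy and RMA per the submitters' processing notes, which correct the background, set arrays to a common distribution and summarise probes. Versions and the genome build: not given in the sources used here. The log base is not stated and was taken as 2, since values run from 2.4 to 13.3. Array medians lay between 6.11 and 6.25.

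Of 28101 rows, 21640 carry 1 gene symbol, updated by Entrez identifier (21553 found) from a GRCm38.p6 table used for names and upstream sequences. A gene was read from its row with the highest mean, and genes under 5.205, the 25th percentile of gene rows, were left out. MHC II-deficient minus MHC II-competent was tested with limma (version 3.58.1, under R 4.3.3, lmFit and eBayes, two-sided, no covariate, 4 residual and 9.40 total degrees of freedom), with Benjamini-Hochberg adjustment over 15037 genes. The fit was tested on simulated data. The number of arrays limits the precision. Each p-value sets a group difference against the spread between these replicates, moderated by the spread over all genes tested.

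The 7 genes and all lists were chosen with earlier results of these data known. Named besides the 7 were up to 4 called genes of a list, a fixed set, and for each of the 7 the 3 genes of highest r. Over all genes tested, same-numbered arrays did not deviate together (r = -0.025, -0.141 and 0.069), so the main fit did not use the replicate numbers as pairs. The labels do not say whether they are pairs. Listed genes that are not named one by one enter the counts, medians and means of their lists if they passed the filter. Listed genes not found among the 19937 genes were not analysed here. Alternatives changed the filter, scaling, prior, array weights, row rule, block or myeloid covariate, or left out 1 array.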

Additional observations from a re-analysis of the deposited data

How the results depend on the processing

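Dapl1, Pde3b and Tnfsf8 were past the threshold in 15 alternative settings, with the exception of Dapl1 under the myeloid covariate (1.82, adjusted p = 0.065), and the count of called genes among the 7 ran from 2 to 4. Il7r passed under quantile normalization (0.51) and with the trended robust prior (0.43), where the count was 4, and the cause was not tested. Signs turned for values that did not pass: Igfbp4 and Cd40lg with the myeloid covariate (0.041 and -0.049) and Igfbp4 without an array (range -0.18 to 0.027). They also turned for Foxp3 (0.017), Cd4 (0.0020) and Pde4b (-0.0019) under quantile normalization, Pde4b under median centring (-0.044), Il2rb with the myeloid covariate (-0.32), and without single arrays for Pde4b (-0.057 to 0.054), Cd4 (-0.21 to 0.023) and Il2rb (-0.10 to 0.23). Over all genes 507 passed (201 higher, 306 lower), and 230 and 230 under quantile normalization, 127 and 297 under median centring, 79 in all with the myeloid covariate and 159 to 708 without 1 array. The replicate block treats same-numbered arrays as pairs, which the labels neither state nor exclude. It called the same 3 of the 7 genes and 564 genes in all. Of 400 alternative differences of the 27 other named genes, 50 lost a call, 3 gained one and 8 changed sign. Values near 5.205, as for Il2, have no detection call here.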
